A study of Homo sapiens with 16 samples.

Results

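The brush border genes examined here were VIL1, MYO1A, CDHR2, CDHR5, CDH17, ANPEP, DPEP1, SI, FABP1 and LGALS4, chosen by name as genes of the absorptive cell of the gut. They are 10 of the 63677 gene identifiers counted, and 8 of the 10 were among the 17464 genes that had enough reads to be tested. They were followed by mRNA sequencing in 2 human colon cancer lines, SW620 and SW480, which were isolated from a lymph node metastasis and from the primary tumour of the same patient. The groups, with 2 libraries each numbered I and II, were SW620 transduced with ERB and given 10 nM estradiol for 24 h, the same cells given DMSO for 24 h, ERB-transduced SW620 without treatment, SW620 with an empty vector, and parental SW620. For SW480 they were ERB-transduced cells, cells with an empty vector and parental cells, all without treatment. ERB is estrogen receptor beta, the product of ESR2 and a transcription factor that estradiol activates. All cells were cultured in DMEM with serum, the labels name no vector promoter or clone, and no estradiol was given to SW480 or to cells without ERB. The labels do not state that libraries I and II are separate cultures, and every p-value here is relative to the spread between such libraries, which may be technical.

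The brush border is the carpet of microvilli on the apical face of an enterocyte. Actin bundlers and motors shape each microvillus, protocadherins link the tips of neighbouring microvilli, and peptidases and disaccharidases anchored in the membrane finish the digestion of food. Enterocytes take on this surface as they leave the crypt, and transcription factors of the CDX and HNF4 families are known regulators of the genes involved. In colon tumours and tumour cell lines, several of these genes serve as signs of enterocytic differentiation.

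Total counts ran from 12743940 to 18948283 reads per library, and 3 reads were worth 0.158 to 0.235 CPM, the read count scaled to the library total. ESR2 had 337 reads over the 2 libraries with estradiol, 265 with DMSO, 349 in untreated ERB SW620 and 327 in ERB SW480. It had 2 reads in SW620 with empty vector, 0 in parental SW620, 6 in SW480 with empty vector and 4 in parental SW480, as the labels say. The libraries labelled SW480 with a vector did not resemble parental SW480. Over the 300 genes that marked parental SW480 against parental SW620, the median level was 17.1% and 21% of parental SW480 in the libraries labelled SW480 with ERB and 2.2% and 2.1% in those labelled SW480 with empty vector, against 1.41% to 2.02% in the SW620 libraries. The median level of the 34 genes that marked parental SW620 was 74.8% to 97.3% of parental SW620 in its untreated transduced libraries. It was 41.2% to 77.9% in the treated ones. In the libraries labelled SW480 with a vector it was 52.8% and 47.6% (ERB) and 28.7% and 59.5% (empty vector). The 4 libraries are therefore called the libraries labelled SW480 with a vector, and whether a difference from parental SW480 came from the vector or from other cells cannot be told apart. In bulk RNA, fewer cells of a type and less RNA per cell cannot be told apart either. Epithelial keratins were abundant in every library (KRT8 at 1203 to 15039 CPM), and EPCAM and CDX2 never fell under 24.7 and 7.72 CPM. The colonocyte markers KRT20 and CEACAM5 had 40 reads each over all 16 libraries, while 9 of the 20 genes of a colonocyte list had enough reads to be tested, and FXYD3 and CEACAM1 averaged 14.9 and 14.8 CPM in SW480-labelled cells with empty vector.

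Per length of transcript, only VIL1 and DPEP1 were abundant. VIL1 encodes villin, which bundles and severs the actin of the microvillus core, and its deposited FPKM (fragments scaled to transcript length and library size) ran from 55.1 to 353 with a median of 262 over the 16 libraries. DPEP1, a membrane dipeptidase that cleaves dipeptides and is known to be raised in colorectal tumours, ran from 36.9 to 390 FPKM with a median of 119. CDHR2, a protocadherin of the links between microvilli, had a median of 5.29 FPKM and ran from 0.0762 to 11. The other members had medians of 1.51 FPKM or less.

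**Figure D1:**
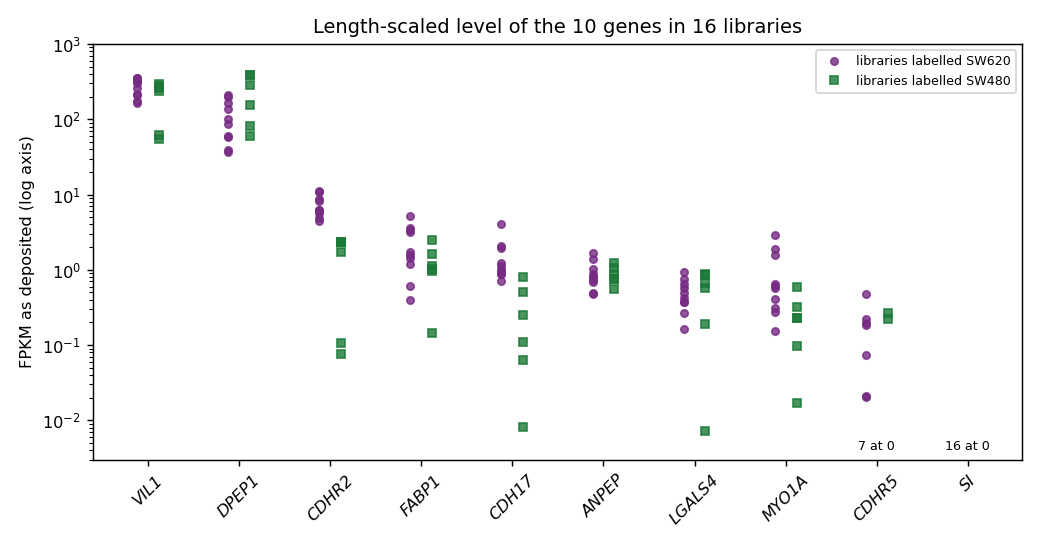
FPKM as deposited, on a log axis, of the 10 genes in the 10 libraries labelled SW620 (circles) and the 6 labelled SW480 (squares), ordered by their median; libraries listed at 0 are counted at the foot. VIL1 and DPEP1 lie above 36 FPKM in all 16 libraries, and SI is at 0 in all 16.

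The lipid and sugar binding members were near the limit of detection. FABP1, the cytosolic fatty acid carrier of liver and small intestine, had 1 to 40 reads per library and at most 5.11 FPKM. LGALS4 (galectin-4, a lectin that helps carry glycoproteins to the apical membrane) had 0 to 15 reads and at most 0.925 FPKM. MYO1A, the myosin that tethers the actin core to the membrane, had 1 to 40 reads, and ANPEP, the apical aminopeptidase N, had 13 to 46. CDH17, the intestinal cadherin of the lateral membrane, had 0 to 113 reads. CDHR5, the protocadherin partner of CDHR2 in microvillus links, had 0 to 7 reads per library and 23 in all, and was not tested. It had 11 reads with estradiol, 2 with DMSO and 0 to 3 in each other group. The ratio of estradiol to DMSO, singled out after its values were seen, was 5.47, with an exact 95% counting interval of 1.19 to 50.8. SI, the sucrase-isomaltase of the small intestine, had 0 reads in each of the 16 libraries, which allows up to 0.158 to 0.235 CPM in a library for counting error alone.

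RefSeq sequence upstream of the annotated starts (build GRCh38.p14) was at hand for 7 of the members, with 13 starts in all. The 250 bases before each start were searched on both strands for 3 motifs that do not overlap in these windows: TTTATG, a CDX site; CAAAGTCCA, an HNF4 site; and GGTCA followed after 3 bases of any kind by TGACC, the estrogen response element. TTTATG was found at 2 of the 13 starts (in FABP1 and SI), against 9.64% of all 35116 windows of this length, and CAAAGTCCA at 1 start (in MYO1A), against 0.325%. The estrogen response element was found at 0 of the 13 starts and in 0.0399% of all windows. The windows below are those of the 3 members with a match, each at the start that held it and so chosen for it: FABP1 and SI because they share the CDX letters while only FABP1 had reads, and MYO1A for the HNF4 letters. Capitals mark the motif letters on either strand.
FABP1 (chr2:88128063-88128312, minus strand): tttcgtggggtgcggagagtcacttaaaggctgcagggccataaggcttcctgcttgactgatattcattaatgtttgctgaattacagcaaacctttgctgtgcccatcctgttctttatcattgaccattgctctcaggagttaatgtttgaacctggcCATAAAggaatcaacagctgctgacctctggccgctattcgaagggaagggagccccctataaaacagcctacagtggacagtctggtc
SI (chr3:165078497-165078746, minus strand): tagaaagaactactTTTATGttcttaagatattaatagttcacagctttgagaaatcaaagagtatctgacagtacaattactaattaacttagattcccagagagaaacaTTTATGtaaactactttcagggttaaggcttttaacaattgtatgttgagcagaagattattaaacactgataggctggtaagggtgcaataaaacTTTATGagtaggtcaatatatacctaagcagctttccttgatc
MYO1A (chr12:57050130-57050379, minus strand): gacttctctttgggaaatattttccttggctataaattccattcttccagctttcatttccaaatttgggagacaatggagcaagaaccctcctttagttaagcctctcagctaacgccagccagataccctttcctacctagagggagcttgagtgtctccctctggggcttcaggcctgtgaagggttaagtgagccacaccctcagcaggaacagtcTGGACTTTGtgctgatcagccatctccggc
A match is a description of these letters only. The MYO1A window is that of the second of its annotated starts. The FABP1 match begins 89 bases before the start and that of MYO1A 30 bases before it.

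Parental SW620 was set against parental SW480 to ask how the lines differ before any vector. The structural and adhesion members VIL1, CDHR2 and CDH17 were higher in SW620, and no member was called lower. VIL1 was at 481 and 583 CPM (scaled by TMM, the trimmed mean of M values) in SW620, against 110 and 98.8 CPM in SW480. The log2 fold change was 2.35 (SE 0.24, edgeR quasi-likelihood test, Benjamini-Hochberg adjusted p = 7.7e-05). CDHR2 was at 17.2 and 20.5 CPM in SW620, against 0.309 and 0.436 CPM in SW480, where it had 5 and 10 reads. Its log2 fold change of 5.61 (SE 0.58, adjusted p = 7.7e-05) was the largest of the tested members in the comparison. CDH17 was at 2.48 and 2.18 CPM in SW620, against 0 and 0.393 CPM in SW480, with a log2 fold change of 3.38 (SE 0.75, adjusted p = 0.0085). All 3 genes had both SW620 libraries above both SW480 libraries, as had 27.1% of all tested genes. The 3 calls among 8 tested members stand beside 6.84% of all tested genes called higher and 11.2% called lower. The median log2 fold change over the 8 was 1.63, beside -0.05 over all genes tested.

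Neither peptidase was called. DPEP1 averaged 51.6 ± 17.8 CPM in SW620 and 69.6 ± 7.29 CPM in SW480 (SD, n = 2 each), with a log2 fold change of -0.43 (SE 0.57, adjusted p = 0.63). With offsets for transcript GC content and length its log2 fold change was -1.24 (adjusted p = 0.0031), so its call depends on that setting. ANPEP averaged 1.93 ± 0.80 CPM in SW620 and 1.78 ± 0.33 CPM in SW480, and the libraries of the 2 lines overlapped. MYO1A, FABP1 and LGALS4 had log2 fold changes of 1.1, 1.54 and 1.71, none past the threshold (adjusted p = 0.44, 0.14 and 0.25). LGALS4 was called without library I of parental SW480 and FABP1 without library II of parental SW480. Calls over all genes rose in the first of these fits and fell in the second. CDH17 was not called when the 4 parental libraries were fitted alone or from log2(FPKM + 1).

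The rest of the brush border machinery is given from lists of known genes. Of 19 tested genes of microvillus structure outside the 10 members, 6 were higher and 1 lower in SW620, with a median log2 fold change of 0.74, beside -0.05 over all genes. The scaffold genes of the same protocadherin complex were among them: USH1C averaged 207 ± 54.3 CPM in SW620 and 29.9 ± 3.11 CPM in SW480, with a log2 fold change of 2.79 (SE 0.36, adjusted p = 0.00029). ANKS4B averaged 14.7 ± 0.24 CPM in SW620 and 1.84 ± 1.03 CPM in SW480, and BAIAP2L2, an actin-binding partner at microvillus tips, averaged 28.5 ± 7.64 and 3.69 ± 1.20 CPM (adjusted p = 0.0012 and 0.0057). MYO1D, another class I myosin, was lower, at 53.3 ± 4.69 CPM in SW620 and 189 ± 51.9 CPM in SW480 (adjusted p = 0.0052). Leaving out 1 library at a time gave 5 to 9 higher structure genes (9 without library I or II labelled SW480 with empty vector), and the MYO1D call was lost without library II of parental SW620.

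Of brush border enzymes 4 of 19 were tested and 2 were higher in SW620, namely GGT1 and NAALADL1, both under 5 CPM; the GGT1 call was lost without library II of either parental line. Of 7 tested transporters in a list of 23, 1 was higher (NPC1L1, the sterol importer, adjusted p = 0.035) and 3 lower, or 2 to 4 lower when 1 library was left out. The NPC1L1 call was lost without any one of the parental SW480, SW620 empty vector, untreated ERB SW620 or estradiol libraries or library II of parental SW620. Calls over all genes fell in these fits, except without library I of parental SW480, where they rose. Among the lower transporters SLC9A3, the apical sodium-proton exchanger, averaged 0.101 ± 0.033 CPM in SW620 and 4.40 ± 4.65 CPM in SW480. In lipid handling 2 of 6 were higher and 1 lower, but 0 were lower without either parental SW620 library or library II of parental SW480. Of 5 tested secretory and goblet markers 3 were higher and 0 lower, and of colonocyte markers 4 of 9 were higher, but 1 and 2 without library I and II of parental SW620. Of 14 tested intestinal transcription factors 5 were higher and 3 lower, against 3 higher and 1 lower without library II of parental SW620 and 4 higher and 1 lower without library II of parental SW480. HNF4A averaged 131 ± 12.3 CPM in SW620 and 29.2 ± 2.1 CPM in SW480, with a log2 fold change of 2.16 (SE 0.24, adjusted p = 0.00011). PRDM1, a repressor known from the fetal gut of mice, averaged 4.47 ± 0.26 CPM in SW620 and 33.0 ± 9.09 CPM in SW480 (adjusted p = 0.00025). Of 10 tested mesenchymal markers 1 was higher and 3 were lower (FN1, ACTA2 and ZEB1), with a median log2 fold change of -0.12. FN1 averaged 17.1 ± 2.77 CPM in SW620 and 543 ± 19.4 CPM in SW480, and SNAI1, the higher one, 17.5 ± 6.47 CPM in SW620 and 5.35 ± 1.95 CPM in SW480 (adjusted p = 0.02). The SNAI1 call was lost without library II of either parental line. Calls over all genes fell in both of these fits, which also lost the GGT1 call and, for SW620, the MYO1D call. The summed level of 9 colon epithelial markers was 6082 to 10337 CPM in SW620 and 2798 to 5503 CPM in SW480. The part of these genes in the differences of the members was not tested.

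**Figure D2:**
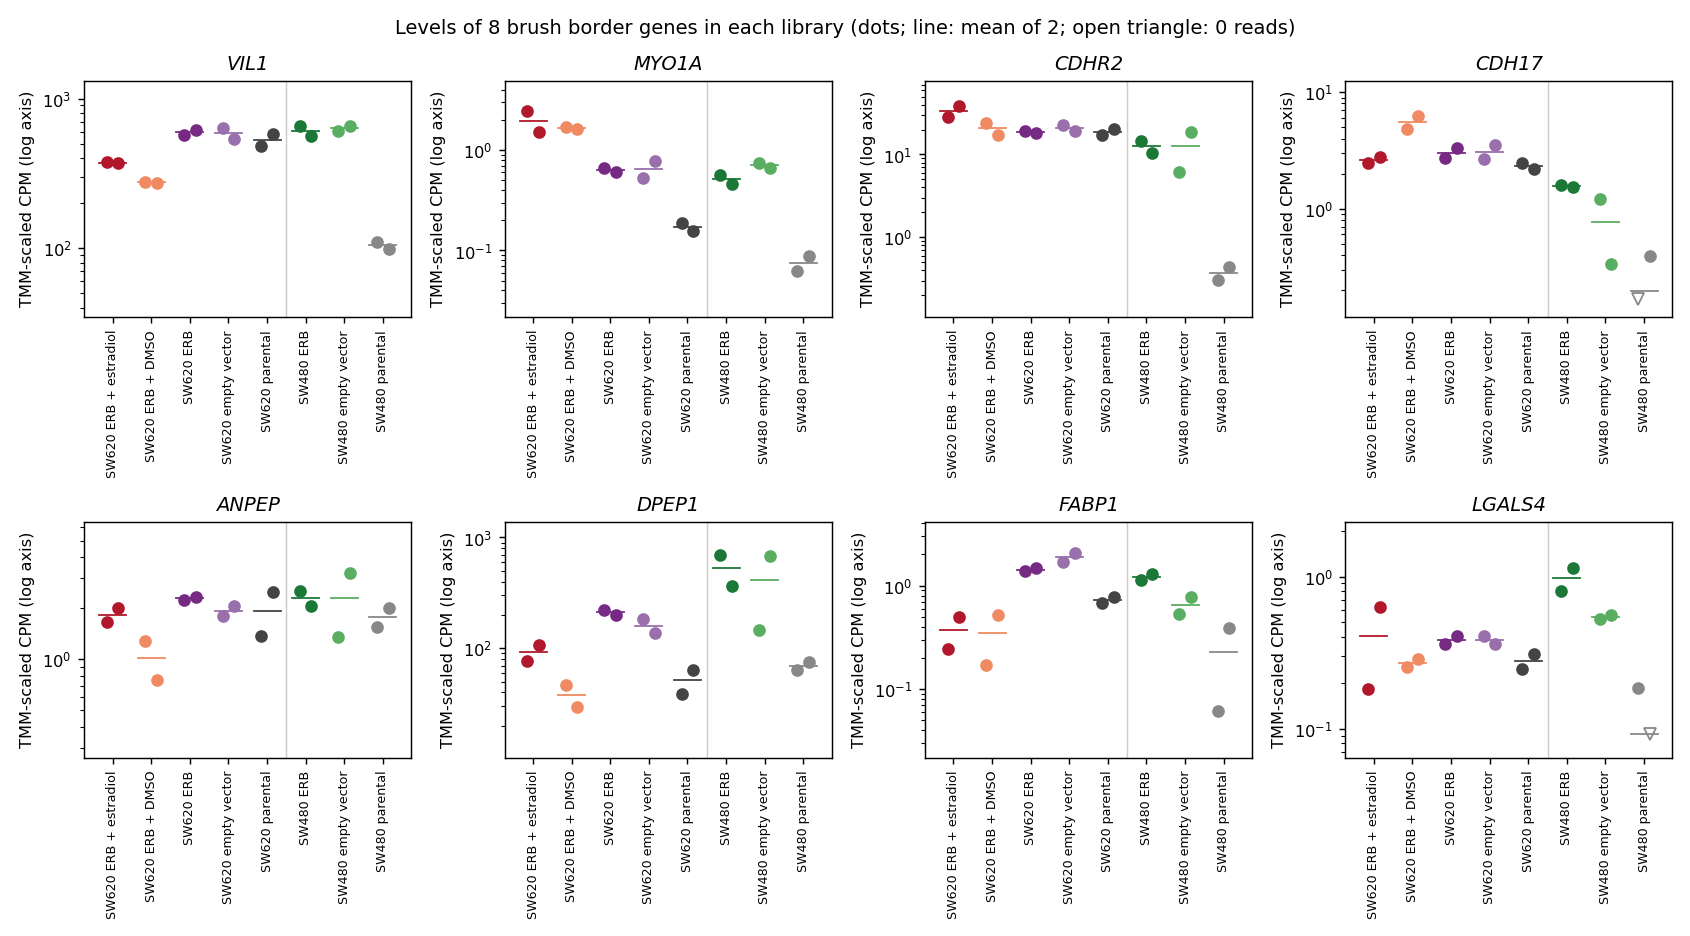
CPM scaled by TMM, on a log axis with its own range in each panel, of the 8 tested members in all 16 libraries, grouped on the x axis with SW620 left and SW480 right of the grey line; dots are libraries, lines are means of 2 and open triangles mark 0 reads. Parental SW480 has the lowest group mean for VIL1, MYO1A, CDHR2, CDH17, FABP1 and LGALS4, while DPEP1 and ANPEP are lowest with DMSO.

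The libraries labelled SW480 with a vector were set against parental SW480. With ERB, 7 of the 8 tested members were called higher, all but ANPEP, beside 19.5% of all tested genes called higher and 24.9% called lower. With empty vector 5 were called higher (VIL1, CDHR2, DPEP1, MYO1A and LGALS4), beside 14.9% of genes called higher and 16% lower. Both comparisons share the 2 parental libraries. VIL1 was at 655 and 565 CPM with ERB and at 610 and 652 CPM with empty vector, against 110 and 98.8 CPM in parental SW480. On this TMM scale these 4 libraries stood within or just above the range of 481 to 635 CPM of the untreated SW620 libraries. Per total reads they were at 407 and 480 CPM with ERB and at 596 and 382 CPM with empty vector. The untreated SW620 libraries were then at 535 to 651 CPM, so the likeness to SW620 depends on the scaling. On the scale of total reads VIL1 averaged 444 ± 51.7 CPM with ERB and 489 ± 152 CPM with empty vector, against 116 ± 5.06 CPM in parental SW480, and the TMM factors of these libraries went as low as 0.585.

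CDHR2 was at 14.6 and 10.5 CPM with ERB and at 6.16 and 18.9 CPM with empty vector, against 0.309 and 0.436 CPM in parental SW480. Its log2 fold changes were 5.02 with ERB and 5.02 with empty vector (SE 0.57 each, adjusted p = 0.00063 and 0.00015). The empty vector libraries lay far apart. DPEP1 was at 693 and 364 CPM with ERB and at 147 and 686 CPM with empty vector, against 64.4 and 74.7 CPM in parental SW480. Its log2 fold changes were 2.93 with ERB (SE 0.61, adjusted p = 0.0061) and 2.58 with empty vector (SE 0.60, adjusted p = 0.0088), and these groups had the highest DPEP1 means of the series. With offsets for GC content and length the log2 fold changes of DPEP1 were 1 in both comparisons (adjusted p = 0.011 and 0.0095). Those of CDHR2 were then 3.93 with ERB and 4.2 with empty vector, and those of VIL1 were 3.54 and 3.36, in place of 2.55 and 2.60. LGALS4 was called in neither comparison with the offsets, and CDH17 in both (3.77 with ERB and 2.41 with empty vector). The other members rested on few reads. MYO1A had 11 reads with ERB and 16 with empty vector over both libraries, against 3 in parental SW480, ratios of 4.32 (exact 95% counting interval 1.14 to 24.1) and 6.41 (1.83 to 34.3) per total reads. LGALS4 had 22 and 12 reads, against 3, ratios of 8.65 (2.60 to 45.1) and 4.80 (1.30 to 26.5), with an adjusted p of 0.045 for empty vector. FABP1 averaged 1.22 ± 0.11 CPM with ERB and 0.227 ± 0.23 CPM in parental SW480 (log2 fold change 2.29, adjusted p = 0.02). With empty vector FABP1 averaged 0.652 ± 0.18 CPM and was not called (adjusted p = 0.15). CDH17 averaged 1.56 ± 0.05 CPM with ERB and 0.196 ± 0.28 CPM in parental SW480 (log2 fold change 2.80, adjusted p = 0.017), and 0.768 ± 0.61 CPM with empty vector (adjusted p = 0.096).

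These counts rest on few libraries. Without library I labelled SW480 with ERB, only VIL1 and CDHR2 kept their ERB calls, and without library II of parental SW480 only VIL1, CDHR2, CDH17 and FABP1 did. Calls over all genes fell in both fits as well. FABP1 lost its call without library II labelled SW480 with ERB or library I of parental SW480. For empty vector, DPEP1 and LGALS4 lost their calls without library II labelled SW480 with empty vector, which had the high DPEP1 value. Without library II of parental SW480, DPEP1 and LGALS4 lost their empty vector calls and CDH17 was called. Calls over all genes fell in these fits too. LGALS4 lost its empty vector call also without any other single library except library I of parental SW480 and the estradiol libraries. In the 6 libraries labelled SW480 alone, 0 members were called with ERB, where 0% of all genes were called, and VIL1 and CDHR2 were called with empty vector, where 4.39% of genes were.

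The difference of the vector effect between the lines was tested directly. VIL1 had log2 fold changes for empty vector against parental of 2.60 in the libraries labelled SW480 and 0.14 in SW620, a difference of 2.46 (SE 0.33, adjusted p = 0.0018). For CDHR2 they were 5.02 and 0.14, a difference of 4.88 (SE 0.71, adjusted p = 0.0024). These were the 2 members called, beside 7.2% of all genes. DPEP1 had a difference of 0.94 (SE 0.80, adjusted p = 0.43), which turned to -0.72 with GC and length offsets (SE 0.37, adjusted p = 0.19). With the same offsets the difference was 3.33 for VIL1 and 4.08 for CDHR2, both still called.

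Other brush border genes were also called in these libraries. Of 19 microvillus structure genes, 8 were higher and 4 lower with ERB, and 9 were higher and 1 lower with empty vector. Without library I labelled SW480 with ERB, or without library II of parental SW480, 3 were higher and 1 lower with ERB, and without library I labelled SW480 with empty vector 9 were higher and 5 lower with empty vector. The 1 lower call was lost without library II labelled SW480 with empty vector or library II of parental SW480. USH1C averaged 268 ± 80.2 CPM with ERB and 253 ± 109 CPM with empty vector, against 29.9 ± 3.11 CPM in parental SW480 (adjusted p = 0.00075 and 0.00019). HNF4A averaged 193 ± 4.97 CPM with ERB and 223 ± 35.2 CPM with empty vector, against 29.2 ± 2.1 CPM (adjusted p = 0.00031 and 2.7e-05). ISX, an intestine-specific homeobox gene, averaged 10.7 ± 0.15 and 12.7 ± 5.02 CPM, against 1.09 ± 0.75 CPM (adjusted p = 0.0023 and 0.00078). NPC1L1 averaged 5.51 ± 0.12 CPM with ERB and 11.9 ± 4.78 CPM with empty vector, against 0.540 ± 0.02 CPM. It was the 1 transporter called higher, while of the 7 tested 5 were lower with ERB and 3 with empty vector (SLC9A3, SLC9A2 and ABCG2 in both), with median log2 fold changes of -3.04 and -2.64. With ERB 0 transporters were lower without library I labelled SW480 with ERB or library II of parental SW480, and with empty vector 6 were lower without library I of that label and 5 without library I of parental SW480. SLC9A3 averaged 0.515 ± 0.24 CPM with ERB and 0.0932 ± 0.03 CPM with empty vector, against 4.40 ± 4.65 CPM in parental SW480. Of 9 tested colonocyte markers 6 were higher with ERB and 4 with empty vector, and 0 were lower. The summed level of the 9 colon epithelial markers was 15570 to 29140 CPM with ERB and 7952 to 29756 CPM with empty vector, against 2798 to 5503 CPM, and that of 16 mesenchymal markers was 975 to 1002 and 743 to 917 CPM, against 1284 to 1652 CPM. Of the 10 tested mesenchymal markers 3 were called higher (SNAI1, COL1A1 and PDGFRB) and 3 lower (FN1, ACTA2 and ZEB1) in each comparison. Only 1 was higher without library II of parental SW480, without library I labelled SW480 with ERB in the ERB comparison, or without library II labelled SW480 with empty vector in the empty vector comparison. SNAI1 averaged 31.9 ± 7.25 CPM with ERB and 29.6 ± 16.1 CPM with empty vector, against 5.35 ± 1.95 CPM in parental SW480. Of the mesenchymal list CDH2, TWIST1 and COL3A1 had 0 reads in all libraries, and leukocyte markers summed to at most 4.62 CPM.

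**Figure D3:**
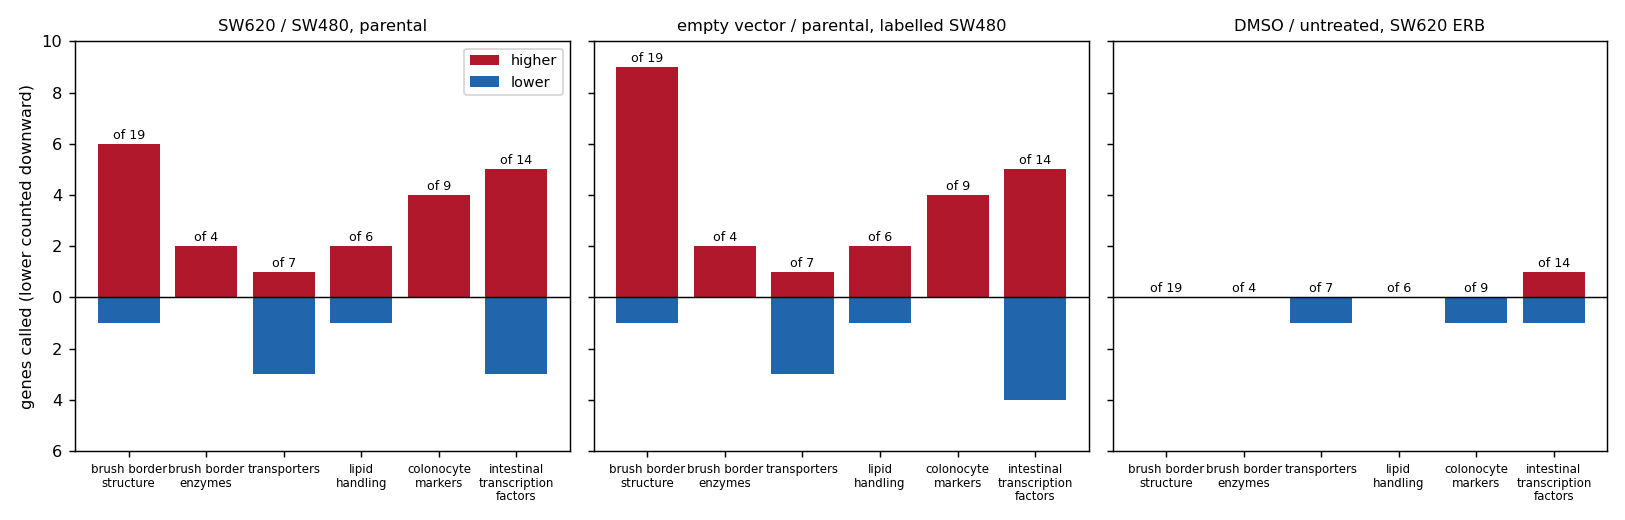
Number of tested genes called higher (up) and lower (down) in 6 gene lists, with the number tested above each bar, for parental SW620 against SW480, empty vector against parental in libraries labelled SW480, and DMSO against untreated ERB SW620. Microvillus structure has 6, 9 and 0 genes called higher in the 3 comparisons.

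In SW620 the empty vector was set against parental cells. With empty vector 0 of the 8 tested members were called against parental cells by edgeR, DESeq2 or limma-voom, beside 0% of all genes with edgeR. An unadjusted p under 0.05 was found for 3 members, beside 276 of the 17464 tested genes. These members were DPEP1, MYO1A and FABP1. DPEP1 was at 183 and 137 CPM with empty vector, against 39.0 and 64.2 CPM in parental SW620. Its log2 fold change of 1.64 (SE 0.58) had an unadjusted p of 0.016 in the fit of all 16 libraries. With GC and length offsets it was 1.72 (adjusted p = 0.047), which made it a call. With ERB against parental SW620, 0 of the 8 members were called, beside 0.00573% of all genes. DPEP1 was at 221 and 202 CPM in ERB SW620, against the same parental libraries, a log2 fold change of 2.03 (SE 0.59, adjusted p = 0.89). Fitting the 10 SW620 libraries alone gave 2.05 (SE 0.29, adjusted p = 0.015), where 0.345% of genes were called. DPEP1 was thus above both parental libraries in all 4 untreated transduced SW620 libraries and in all 4 libraries labelled SW480 with a vector. The share of all genes with such a separation is not given here, and DPEP1 passed the test in SW620 only in some fits. MYO1A had 24 reads with empty vector and 23 with ERB, against 5 in parental SW620. FABP1 had 69 and 52 reads, against 21. VIL1 and CDHR2 had log2 fold changes of 0.14 each with empty vector.

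ERB was set against empty vector to ask for an effect of the receptor without added ligand. In SW620 0 of 8 tested members were called by edgeR, DESeq2 or limma-voom, beside 0.00573% of all genes with edgeR, which was ESR2 alone. An unadjusted p under 0.05 with edgeR was found for 0 members, beside 94 of the 17464 tested genes. VIL1 averaged 597 ± 32.0 CPM with ERB and 585 ± 70.4 CPM with empty vector, a log2 fold change of 0.03 (SE 0.23). DPEP1 averaged 211 ± 13.9 CPM with ERB and 160 ± 32.5 CPM with empty vector, a log2 fold change of 0.40 (SE 0.57, adjusted p = 1). In the libraries labelled SW480 again 0 members were called by the 3 tools, beside 1.1% of genes with edgeR. Of unadjusted p under 0.05 there were 0 among the members, beside 1688 among the 17464 tested genes. There the largest log2 fold changes were those of CDH17 (0.95, SE 0.71) and FABP1 (0.93, SE 0.64), both with adjusted p over 0.6. In the test of a difference of the ERB effect between the lines 0 members were called by the 3 tools, beside 0.189% of genes with edgeR. Here 0 members had an unadjusted p under 0.05, beside 782 of the 17464 tested genes. The ERB and empty vector libraries labelled SW480 also differed in the 300 genes that marked parental SW480. These genes stood at 17.1% and 21% of the parental level with ERB and at 2.2% and 2.1% with empty vector. Receptor and cell identity cannot be told apart in the comparisons that use these libraries. A p that misses the threshold does not show that ERB left these genes as they were.

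DMSO was set against no treatment in ERB SW620, which compares solvent, handling and 24 h together. VIL1 and DPEP1, the abundant members, fell with DMSO, and no member was called higher. VIL1 was at 277 and 275 CPM with DMSO, against 574 and 620 CPM without treatment, a log2 fold change of -1.12 (SE 0.23, adjusted p = 0.02). DPEP1 was at 47.0 and 29.4 CPM with DMSO, against 221 and 202 CPM, a log2 fold change of -2.47 (SE 0.60, adjusted p = 0.035). In neither gene did the libraries of the groups overlap, as in 39.8% of all genes in this direction. The 2 calls of 8 stand beside 3.76% of genes called lower and 2.39% called higher. TMM factors were 1.35 and 1.36 with DMSO and 1.05 in both untreated libraries, and on the scale of total reads VIL1 averaged 374 ± 0.44 CPM with DMSO and 627 ± 33.2 CPM untreated.

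FABP1, ANPEP and MYO1A had an unadjusted p under 0.05 without passing the adjusted threshold. With VIL1 and DPEP1 this made 5 of 8 members with such a p, beside 4880 of the 17464 tested genes. FABP1 had 4 and 9 reads with DMSO, against 23 and 29 untreated (log2 fold change -2.09, SE 0.61, adjusted p = 0.063). ANPEP had 30 and 13 reads with DMSO, against 37 and 46 (log2 fold change -1.15, adjusted p = 0.14). MYO1A ran the other way, with 40 and 28 reads with DMSO, against 11 and 12 (log2 fold change 1.38, SE 0.39, adjusted p = 0.056). CDH17 had 113 and 108 reads with DMSO, against 45 and 65, and CDHR2 overlapped between the groups (log2 fold change 0.14).

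Both calls were lost without either DMSO library or without either untreated ERB SW620 library, and the DPEP1 call was lost without either estradiol library or either SW620 empty vector library. Calls over all genes fell in each of these fits as well. Leaving out a parental SW480 library or library I labelled SW480 with empty vector added FABP1 and MYO1A, and leaving out library II of the same label added ANPEP as well. Calls over all genes also rose, in both directions, in each of these fits. In the 10 SW620 libraries alone, 6 members were called, with VIL1, DPEP1, FABP1 and ANPEP lower and MYO1A and CDH17 higher, but there 48.8% of all genes were called. With GC and length offsets in these libraries the log2 fold change of DPEP1 was -1.55 and that of VIL1 -1.62, and CDHR2 was called higher (0.68) while CDH17 was not. In this fit 3723 genes were called higher and 3989 lower of 16533 tested.

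Few other genes of the absorptive programme were called with DMSO. Of 19 microvillus structure genes 0 were called by edgeR, with a median log2 fold change of -0.51, beside 0.00 over all genes, and 4 were called lower without library I or without library II labelled SW480 with empty vector. NPC1L1 averaged 0.229 ± 0.08 CPM with DMSO and 2.66 ± 0.19 CPM untreated (log2 fold change -3.53, SE 0.48, adjusted p = 0.0056). PHGR1, a small colonocyte gene, averaged 0.208 ± 0.11 CPM with DMSO and 1.54 ± 0.48 CPM untreated (adjusted p = 0.014). ELF3, an epithelial ETS factor, averaged 13.1 ± 2.74 CPM with DMSO and 61 ± 1.36 CPM untreated (adjusted p = 0.013). KLF4, a factor of terminal differentiation, was higher, at 7.47 ± 0.28 CPM with DMSO and 1.87 ± 0.42 CPM untreated (adjusted p = 0.048). The NPC1L1, PHGR1, ELF3 and KLF4 calls were all lost without either DMSO or either untreated ERB SW620 library, and the KLF4 call also without either estradiol, SW620 empty vector or parental SW620 library. The summed level of the 9 colon epithelial markers was 3140 to 3688 CPM with DMSO and 9889 to 10113 CPM untreated, and that of the 16 mesenchymal markers 220 to 230 CPM with DMSO and 470 to 493 CPM untreated. VIM and COL1A1 of the mesenchymal list were called lower (adjusted p = 0.024 and 0.034), and both calls were lost without any one DMSO, untreated ERB SW620 or estradiol library, and 1 of them without either SW620 empty vector library or library II of parental SW620. Among secretory markers CHGB was higher, at 22.6 ± 1.78 CPM with DMSO and 3.83 ± 0.47 CPM untreated (adjusted p = 0.0076), and LYZ was lower (adjusted p = 0.027). The CHGB and LYZ calls were lost without either DMSO or either untreated ERB SW620 library. In every fit that lost a call of this paragraph, calls over all genes fell too. The part of these genes' shifts in the members' values was not tested.

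**Figure D4:**
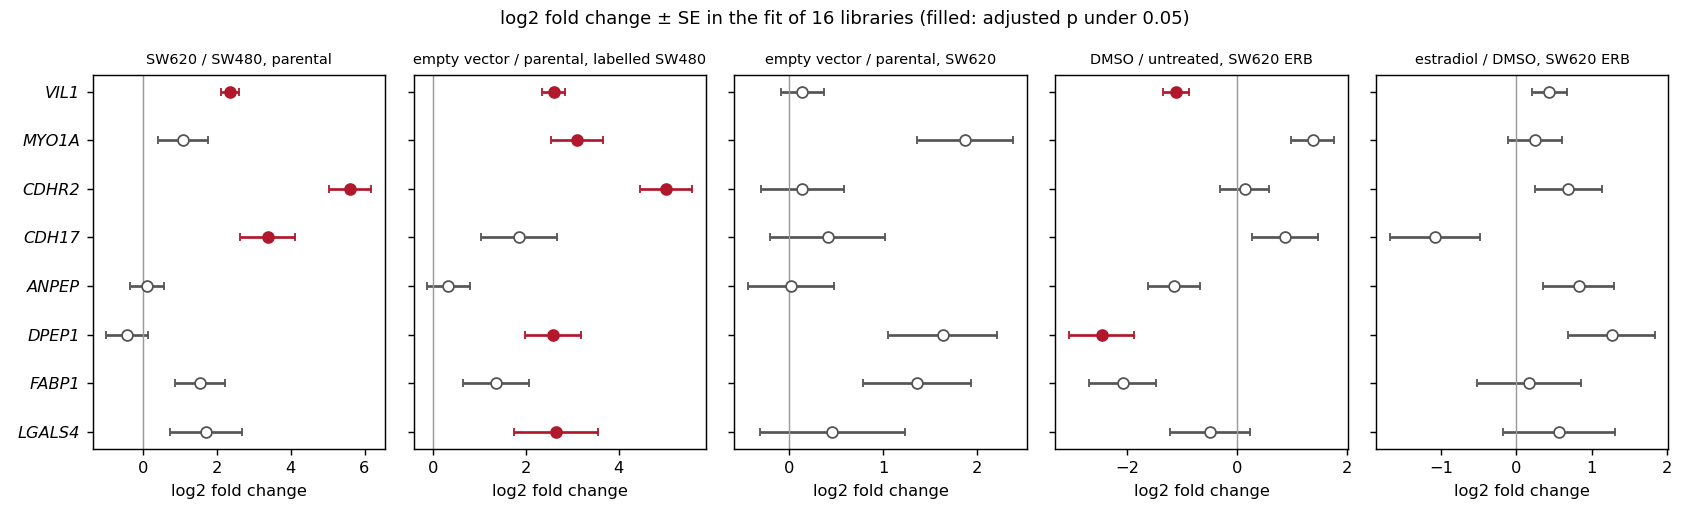
log2 fold changes with SE bars of the 8 tested members in 5 comparisons fitted on 16 libraries; filled red points have an adjusted p under 0.05, and each panel has its own x range. VIL1 and CDHR2 are filled in the first 2 panels, no member is filled for the SW620 empty vector or for estradiol, and VIL1 and DPEP1 are filled on the negative side for DMSO.

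Estradiol was set against DMSO in ERB SW620 to ask for an effect of the ligand. No member passed the test: 0 of 8 were called by edgeR, DESeq2 or limma-voom, beside 0% of all genes with edgeR. An unadjusted p under 0.05 was found for 1 member (DPEP1), beside 3469 of the 17464 tested genes. DPEP1 was at 76.8 and 107 CPM with estradiol, against 47.0 and 29.4 CPM with DMSO, a log2 fold change of 1.27 (SE 0.58, adjusted p = 0.24). It stayed below the 202 to 221 CPM of untreated ERB SW620. VIL1 was at 378 and 368 CPM with estradiol, against 277 and 275 CPM with DMSO (log2 fold change 0.44, SE 0.23, adjusted p = 0.24). On the scale of total reads VIL1 averaged 399 ± 17.3 CPM with estradiol and 374 ± 0.44 CPM with DMSO, so the size of its difference depends on the scaling. CDHR2 was at 28.7 and 38.6 CPM with estradiol, against 24.3 and 17.3 CPM with DMSO (log2 fold change 0.69, SE 0.45, adjusted p = 0.29). CDH17 was the member with the opposite sign, at 2.44 and 2.76 CPM with estradiol, against 4.81 and 6.23 CPM with DMSO (log2 fold change -1.08, SE 0.60, adjusted p = 0.25). In these 4 genes the libraries of the 2 groups did not overlap on the TMM scale, which was also true of 42.4% of all genes in the higher and 38.3% in the lower direction. Per total reads CDHR2 did overlap, at 31.2 and 40.5 CPM with estradiol and 32.9 and 23.5 CPM with DMSO.

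Fits of fewer libraries changed this picture. In the 10 SW620 libraries alone DPEP1, CDHR2 and VIL1 were called higher (adjusted p = 0.0072, 0.026 and 0.031) and CDH17 lower (adjusted p = 0.01), where 53% of all genes were called. With GC and length offsets in the same libraries only VIL1 was called, with a log2 fold change of 1 (adjusted p = 0.014). In this fit 1809 genes were called higher and 1123 lower of 16533 tested. There DPEP1 had a log2 fold change of 0.14 (SE 0.10), CDHR2 -0.08 (SE 0.13) and CDH17 -0.47 (SE 0.21). The calls of DPEP1, CDHR2 and CDH17 under estradiol thus depend on this setting, and the value for VIL1 was larger with the offsets. MYO1A, ANPEP, FABP1 and LGALS4 had adjusted p of 0.63, 0.26, 0.88 and 0.59 in the fit of 16 libraries.

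**Figure D5:**
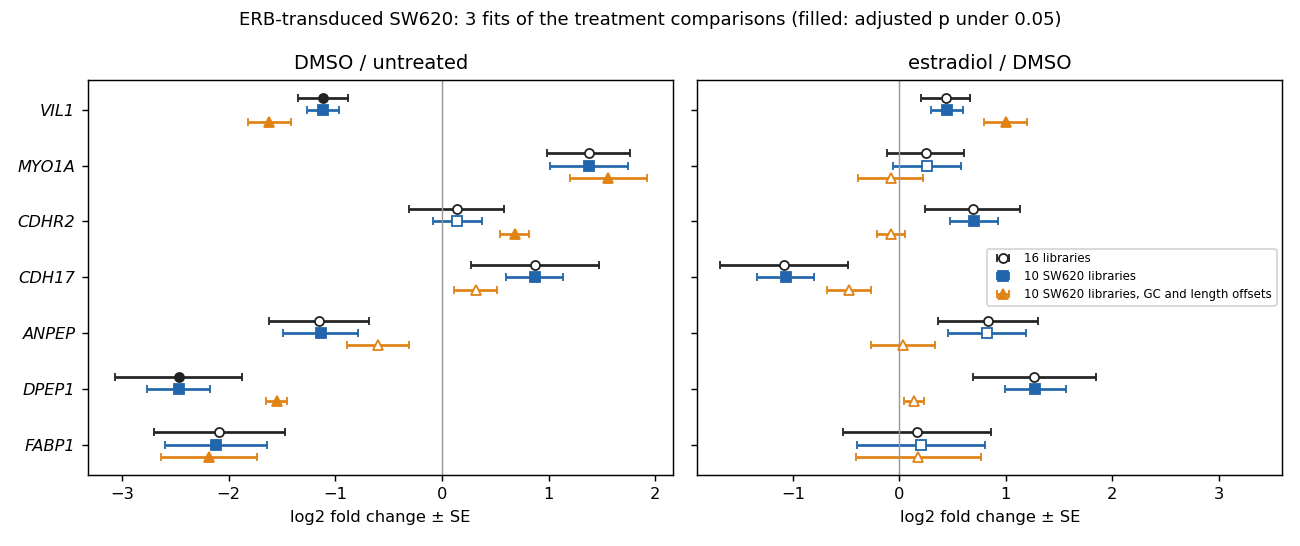
log2 fold changes with SE bars for DMSO against untreated (left) and estradiol against DMSO (right) in ERB SW620, for 7 members in 3 fits; filled symbols have an adjusted p under 0.05. For estradiol, DPEP1 is 1.27 with all 16 libraries, 1.28 in SW620 libraries alone and 0.14 with GC and length offsets.

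Over the 8 groups the members did not follow a single course. VIL1 had 5 groups at means of 532 to 631 CPM whose neighbours in order overlapped, then estradiol at 373, DMSO at 276 and parental SW480 at 104 CPM, each apart from the next. DPEP1 was ordered otherwise, with ERB SW480 at 529 CPM and DMSO at 38.2 CPM as its ends. CDHR2 had its highest mean with estradiol (33.6 CPM) and its lowest in parental SW480 (0.373 CPM), a 90.3-fold span, and ANPEP the narrowest, 2.26-fold between SW480 with empty vector and DMSO. Likeness was measured as the root mean square difference of log2 profiles over the 8 group means, each centred on its own mean. Of the 4 members with 5 CPM or more in a group, the closest were CDHR2 and CDH17 (0.79) and the farthest CDHR2 and DPEP1 (2.12). Among 12600 other genes with 5 CPM or more in a group, the profiles nearest to VIL1 were those of NINJ2 (0.12) and RP11-150O12.6 (0.15). Nearest to DPEP1 were PRODH (0.23) and FGFR3 (0.45), to CDHR2 CYP2B6 (0.47) and PLXNA2 (0.56), and to CDH17 RP11-627G23.1 (0.49) and CABP4 (0.50).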

How the data were processed

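Poly(A) RNA was made into stranded libraries, per the labels' protocols. The authors deposited 1 table of read counts and 1 of FPKM per gene for the 16 libraries. The submitters' processing notes name Cufflinks 2.1.1, HTSeq 0.6.1, Picard 1.29, SAMtools and TopHat2 2.0.4, with build GRCh37; which tool made which table, and whether counting used the strand, the sources used here do not say. Reads of a gene and an antisense neighbour therefore may not be separate. Members were matched by symbol and Ensembl identifier. RefSeq promoters are of another build, so no position in GRCh37 is given.

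Counts were filtered (filterByExpr), scaled with TMM factors of 0.585 to 1.36 and fitted in 1 quasi-likelihood model of 8 groups over 16 libraries (edgeR 4.0.16, R 4.3.3), with Benjamini-Hochberg adjustment over 17464 genes and a threshold of 0.05; tests are two-sided, and SEs derive from the F statistic. It was tested on simulated counts. Alternatives were RLE factors, other filters, DESeq2 1.42.0, voom and trend fits on log2 FPKM (limma 3.58.1), a 2-fold minimum, fewer groups, a replicate block, GC and length offsets (splines with 5 degrees of freedom, known for 98% of genes) and leaving out each library, where the lone library of a group is assumed to vary like the other groups. Offsets within SW620 alone were chosen after seeing the data. Intervals cover counting error only.

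The members, the gene lists and the motifs were chosen with earlier results of these data known. All members are named; of each list, up to 3 called genes per direction with the smallest p were eligible; like genes are the 2 nearest profiles per member with 5 CPM or more. SLC9A2, ABCG2, SMAD4 and other genes with 0 reads in a group are counted but given no fold. CDX2, KRT20, CEACAM5, EPCAM, KRT8 and FN1 come from marker lists. One gene of the transcription factor list is not reported here by name.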

Additional observations from a re-analysis of the deposited data

Results flagged for a closer look

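The vector effect differed between the lines for 2 members by a test of the difference itself. For VIL1 the log2 fold change of empty vector against parental was 2.46 higher in the libraries labelled SW480 than in SW620, and for CDHR2 it was 4.88 higher (edgeR quasi-likelihood test, adjusted p = 0.0018 and 0.0024). Both genes were already high in parental SW620, and the libraries labelled SW480 with empty vector held the marker genes of parental SW480 at 2.2% and 2.1% of their parental level. Vector and cell identity cannot be told apart here. When the 4 groups of this contrast were fitted alone, 0 members were called, beside 0 genes called higher and 21 called lower of 16573 tested. LGALS4 was also called without library I of parental SW480, and DPEP1 without library I labelled SW480 with empty vector. Calls over all genes also rose in both fits.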

How the results depend on the processing

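Of 573 alternative values of 19 gene results, 491 stayed the same, 69 lost the threshold, 13 otherwise moved and 0 changed sign. In fits with a test, the same means that direction and side of the threshold were kept. Ratios from total reads and deposited FPKM have no test. For them the same means within the SE of the log2 fold change, and the 13 that moved were all such ratios beyond it. Members called for ERB against parental in libraries labelled SW480 numbered 3 with the groups alone and in the 3 FPKM fits and 0 in the 6 SW480 libraries, against 7. For empty vector there they numbered 2 with the groups or the line alone and 3 in the FPKM fits, against 5. In SW620, empty vector against parental gave 1 with GC offsets, with or without the line alone, against 0. ERB against parental SW620 gave 1 without a filter, with GC offsets, in the line alone and with both, against 0. DMSO gave 5 with GC offsets, in the line alone with offsets and without the 4 SW480 vector libraries, and 6 with the groups or line alone, against 2. Estradiol gave 1 without a filter and with offsets in SW620 alone, and 4 with the groups or line alone, against 0. The vector effect between lines gave 0 with the groups alone, against 2. Leaving out 1 library gave 3 to 4 members for the parental lines, 3 to 5 and 2 to 7 for empty vector and ERB against parental in SW480, 0 to 5 for DMSO and 2 to 3 for the vector effect. The replicate numbers did not pair the libraries, since deviations from group means correlated between -0.904 and 0.87 across groups, and with a replicate block DMSO had 1 member called (VIL1) and empty vector in SW480 had 4 (LGALS4 lost, adjusted p = 0.063). Over all genes the calls ranged over the fits from 0 to 10285 for DMSO (1074 in the report's fit), from 0 to 10111 for estradiol (0), from 0 to 10412 for ERB in SW480 (7756), from 704 to 10643 for empty vector in SW480 (5399), from 1358 to 5725 for the parental lines (3147), from 21 to 7778 for the vector effect (1258), from 0 to 867 for ERB against empty vector in SW480 (192), from 0 to 131 for the ERB effect between lines (33), from 0 to 210 for empty vector in SW620 (0), from 1 to 657 for ERB against parental SW620 (1) and from 0 to 17 for ERB against empty vector in SW620 (1). Another scale moved the median log2 fold change of all genes by over 0.1, at most by -0.48 (FPKM with a pseudocount of 0.1, vector effect). The causes were not tested. CDHR5, SI and most of MYO1A, FABP1 and LGALS4 are limited by depth.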
